A study of Mus musculus with 12 samples.

Results

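Acute phase protein genes encode plasma proteins whose hepatic synthesis shifts during inflammation. The genes described here are the 10 rows of a liver expression table that carry the names *Saa1*, *Saa2*, *Saa3*, *Saa4*, *Orm1*, *Orm2*, *Orm3*, *Lcn2*, *Hp* and *Hpx*. They are 10 of the 54532 genes of the table, and all 10 were among the 11083 genes tested for differential expression, which had a mean of at least 1 FPKM (a fragment count divided by gene length and by a scale for each mouse) over the 12 mice. The livers came from male C57BL/6J mice that began their diets at 5 weeks of age and ate them for 26 weeks. There were 4 groups of 3 mice. ND mice ate a normal diet, control mice ate high-fat food without supplement, and the remaining groups ate that food with either 1% HYA or 1% LA. LA is linoleic acid, and HYA is a hydroxy derivative formed from it by bacterial addition of water across a double bond, so the LA group received the parent compound at the same dose.

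As background, hepatocytes make most acute phase proteins, and interleukin-6 and interleukin-1 drive their synthesis through STAT3, C/EBP and NF-kB factors. Serum amyloid A proteins travel with high-density lipoprotein, and in mice *Saa1* and *Saa2* are the strongly inducible hepatic genes, *Saa3* is also made by macrophages and adipocytes, and *Saa4* is known as the constitutive gene. *Orm1*, *Orm2* and *Orm3* encode orosomucoids, which bind small lipophilic molecules, *Lcn2* encodes lipocalin 2, which binds bacterial siderophores, and haptoglobin (*Hp*) and hemopexin (*Hpx*) bind free hemoglobin and heme.

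Between 17169064 and 25220880 fragments on genes were recovered per mouse. The deposited FPKM scale was not this total and differed by group. It was 0.917 to 0.953 times the fragments on genes in ND-fed mice, 1.03 to 1.10 times in control mice, 0.980 to 1.01 times with HYA and 1.05 to 1.06 times with LA. The 10 genes together took 0.522% to 0.573% of the fragments on genes in ND-fed mice, 0.791% to 0.985% in control mice, 0.680% to 0.734% in HYA-treated mice and 0.796% to 0.912% in LA-treated mice. *Hpx* ranked 19 and *Hp* 27 among all genes by mean FPKM, *Orm1* ranked 72 and *Saa4* 488, and the least abundant gene, *Saa3*, ranked 8880. In ND-fed mice *Lcn2* rested on 30, 52 and 55 fragments and *Orm3* on 43, 39 and 30. FPKM depends on the gene length used by the authors, which was 2478 bases for *Saa1*, 2518 for *Saa2* and 2623 for *Lcn2*, whereas their longest protein-coding transcripts in the GENCODE basic annotation are 609, 652 and 915 bases. The table lengths of the *Orm* genes, *Saa4* and *Hpx* equalled those of such transcripts. Levels are therefore compared between genes only as FPKM with these lengths. Ratios of FPKM between mice within a gene do not depend on the length, but log2(FPKM + 1) differences do, since the added 1 weighs more where FPKM is low. The transcripts of *Saa1* and *Saa2* were identical at 87.3% of aligned positions and those of *Orm1* and *Orm2* at 91.0%, so the split of fragments between these near copies is uncertain, although no run of 150 bases in the transcripts of the 10 genes was shared with another gene. No other gene of the table overlapped any of the 10 genes. In the GRCm38 coordinates of the table, the 4 *Saa* genes lie together at chr7:46711998-46715700 (*Saa3*, ENSMUSG00000040026, minus strand), chr7:46727998-46732603 (*Saa4*, ENSMUSG00000040017, minus strand), chr7:46740497-46742980 (*Saa1*, ENSMUSG00000074115, minus strand) and chr7:46751790-46754313 (*Saa2*, ENSMUSG00000057465, plus strand). The 3 *Orm* genes lie together at chr4:63344560-63348163 (*Orm1*, ENSMUSG00000039196, plus strand), chr4:63356162-63359511 (*Orm3*, ENSMUSG00000028359, plus strand) and chr4:63362449-63365878 (*Orm2*, ENSMUSG00000061540, plus strand). The others lie at chr2:32384633-32388252 (*Lcn2*, ENSMUSG00000026822, minus strand), chr8:109575128-109579172 (*Hp*, ENSMUSG00000031722, minus strand) and chr7:105591613-105600137 (*Hpx*, ENSMUSG00000030895, minus strand).

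The promoters were searched for motifs of the factors named above. RefSeq entries (GRCm38.p6) were matched for 8 of the 10 genes, namely *Saa1*, *Saa2*, *Saa3*, *Saa4*, *Orm2*, *Orm3*, *Lcn2* and *Hpx*. The 250 bases before the transcription start were searched on both strands for a C/EBP motif (TTGCNNAA), an NF-kB motif (GGNNTTTCC), a STAT motif (TTCNNNGAA) and a type 2 interleukin-6 element (CTGGGAA). All 8 windows held the C/EBP letters, which were present in 9.57% of the 32536 distinct windows of the RefSeq table. The NF-kB letters were found in *Saa3* alone of the 8, against 4.93% of all windows. The STAT letters and the type 2 element were in none of the 8, against 7.04% and 9.14% of all windows, which says only that these letters are not in these windows. The *Lcn2* window lies wholly inside the *Lcn2* gene of the table, and those of *Saa2*, *Saa3* and *Hpx* lie partly inside theirs, since RefSeq places these starts within the gene spans of the table. The 8 windows are not independent, since those of *Saa1* and *Saa2* were identical at 94.8% of aligned positions and those of *Orm2* and *Orm3* at 85.5%, whereas *Saa1* and *Saa4* shared 42.6%. The 5 sequences are shown because they let the near copies be compared with each other and *Saa1* with *Saa4*, read 5′ to 3′ along the gene, with the C/EBP letters in capitals and bases inside a gene of the table left out.
Saa1 (chr7:46742981-46743230, minus strand): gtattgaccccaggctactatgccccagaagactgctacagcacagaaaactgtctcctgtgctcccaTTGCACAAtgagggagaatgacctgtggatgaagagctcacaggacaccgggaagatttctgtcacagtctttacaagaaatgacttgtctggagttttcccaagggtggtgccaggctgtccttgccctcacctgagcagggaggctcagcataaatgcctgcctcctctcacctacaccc
Saa2 (chr7:46751583-46751789, plus strand): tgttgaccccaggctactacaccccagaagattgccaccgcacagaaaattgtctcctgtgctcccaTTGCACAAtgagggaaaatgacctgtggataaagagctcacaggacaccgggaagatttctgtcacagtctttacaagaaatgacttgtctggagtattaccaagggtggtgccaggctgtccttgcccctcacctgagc
Saa4 (chr7:46732604-46732853, minus strand): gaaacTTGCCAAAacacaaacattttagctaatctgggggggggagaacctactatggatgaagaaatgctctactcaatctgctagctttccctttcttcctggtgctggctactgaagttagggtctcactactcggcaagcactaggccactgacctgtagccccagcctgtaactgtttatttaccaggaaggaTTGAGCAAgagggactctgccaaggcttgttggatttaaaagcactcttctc
Orm2 (chr4:63362199-63362448, plus strand): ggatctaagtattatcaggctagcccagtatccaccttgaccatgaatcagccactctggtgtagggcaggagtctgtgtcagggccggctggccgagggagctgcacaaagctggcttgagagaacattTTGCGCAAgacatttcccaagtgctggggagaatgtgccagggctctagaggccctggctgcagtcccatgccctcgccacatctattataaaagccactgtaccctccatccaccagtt
Orm3 (chr4:63355908-63356157, plus strand): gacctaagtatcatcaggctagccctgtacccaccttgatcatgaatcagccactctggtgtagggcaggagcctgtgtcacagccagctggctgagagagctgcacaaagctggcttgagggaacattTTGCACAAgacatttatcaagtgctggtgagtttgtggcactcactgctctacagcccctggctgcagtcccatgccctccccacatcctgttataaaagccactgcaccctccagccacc

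The C/EBP letters lay 182 to 175 bases before the start in *Saa1* and 183 to 176 in *Saa2*, and 120 to 113 in *Orm2* and 121 to 114 in *Orm3*. The *Orm2* match is its own reverse complement and reads on both strands. In *Saa4* 2 matches lay at 245 to 238 and at 52 to 45 bases before the start. No match overlapped another within a window. A match describes letters only and was not tested as a binding site.

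To see which of these genes differed with long-term high-fat feeding, control mice were compared with ND-fed mice. By limma, 7 of the 10 genes were higher in control mice (*Saa1*, *Saa2*, *Orm2*, *Orm3*, *Lcn2*, *Hp* and *Hpx*), beside 16.2% of all tested genes, and 1 was lower (*Saa4*), beside 19.1% of all tested genes. *Saa3* and *Orm1* were not called. The ranges of the 3 control and 3 ND-fed mice were apart for 9 of the 10 genes, 8 of them higher and 1 lower, where 45.6% of tested genes had ranges apart in either direction. The median log2 fold change was 1.04 over the 10 genes and -0.043 over all tested genes. These shares depend on scaling: 1795 genes were called higher and 2115 lower as deposited, and 3792 and 732 after rescaling to TPM, which moved the median of all genes by 0.21. The 8 calls and their directions held under this rescaling, and relative to the median of all genes the difference was then 4.21 for *Lcn2* and -0.83 for *Saa4*.

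*Saa1* and *Saa2*, the inducible serum amyloid A genes, moved in the same direction. The FPKM of *Saa1* was 12.8, 15.1 and 9.63 in the ND-fed mice, 58.5, 44.5 and 66.0 in the control mice, 51.6, 49.7 and 58.4 in the HYA-treated mice and 78.8, 44.1 and 41.9 in the LA-treated mice. Every ND-fed mouse was below every mouse on a high-fat diet, and the 3 high-fat groups overlapped, with LA replicate 1 highest of all. The mean was 12.5 ± 2.73 in ND-fed and 56.3 ± 10.9 in control mice (SD, n = 3 each), 4.51 times as high, with a log2 fold change of 2.09 (SE 0.23, adjusted p = 9.16e-05 by limma). The FPKM of *Saa2* was 6.10, 8.05 and 4.15 in the ND-fed mice, 38.9, 30.3 and 44.3 in the control mice, 36.3, 24.3 and 38.4 in the HYA-treated mice and 50.9, 28.6 and 27.0 in the LA-treated mice. The order of the groups and the position of LA replicate 1 were those of *Saa1*. Control mice had 6.20 times the mean of ND-fed mice, with a log2 fold change of 2.47 (SE 0.28, adjusted p = 8.76e-05).

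*Saa4*, the constitutive family member, differed in the opposite direction. The FPKM of *Saa4* was 129, 147 and 136 in the ND-fed mice, 64.5, 90.1 and 67.9 in the control mice, 89.0, 93.9 and 111 in the HYA-treated mice and 69.2, 78.5 and 77.0 in the LA-treated mice. All ND-fed mice were above all other mice, and the HYA-treated mice overlapped the control mice only through control replicate 2. The mean was 137 ± 8.94 in ND-fed and 74.2 ± 13.9 in control mice, a log2 fold change of -0.89 (SE 0.12, adjusted p = 3.30e-04). *Saa3*, the family member also made by macrophages and adipocytes, was near the lower limit of the tested genes. The FPKM of *Saa3* was 2.12, 2.73 and 1.37 in the ND-fed mice, 1.70, 1.31 and 2.83 in the control mice, 3.40, 1.78 and 4.19 in the HYA-treated mice and 1.15, 1.28 and 1.55 in the LA-treated mice. Every pair of groups overlapped except HYA and LA, whose ranges were apart. Its log2 fold change in control against ND-fed mice was -0.068 (95% interval -0.62 to 0.48, adjusted p = 0.858), so that a difference of up to -0.62 or 0.48 lay within the interval.

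**Figure D1:**
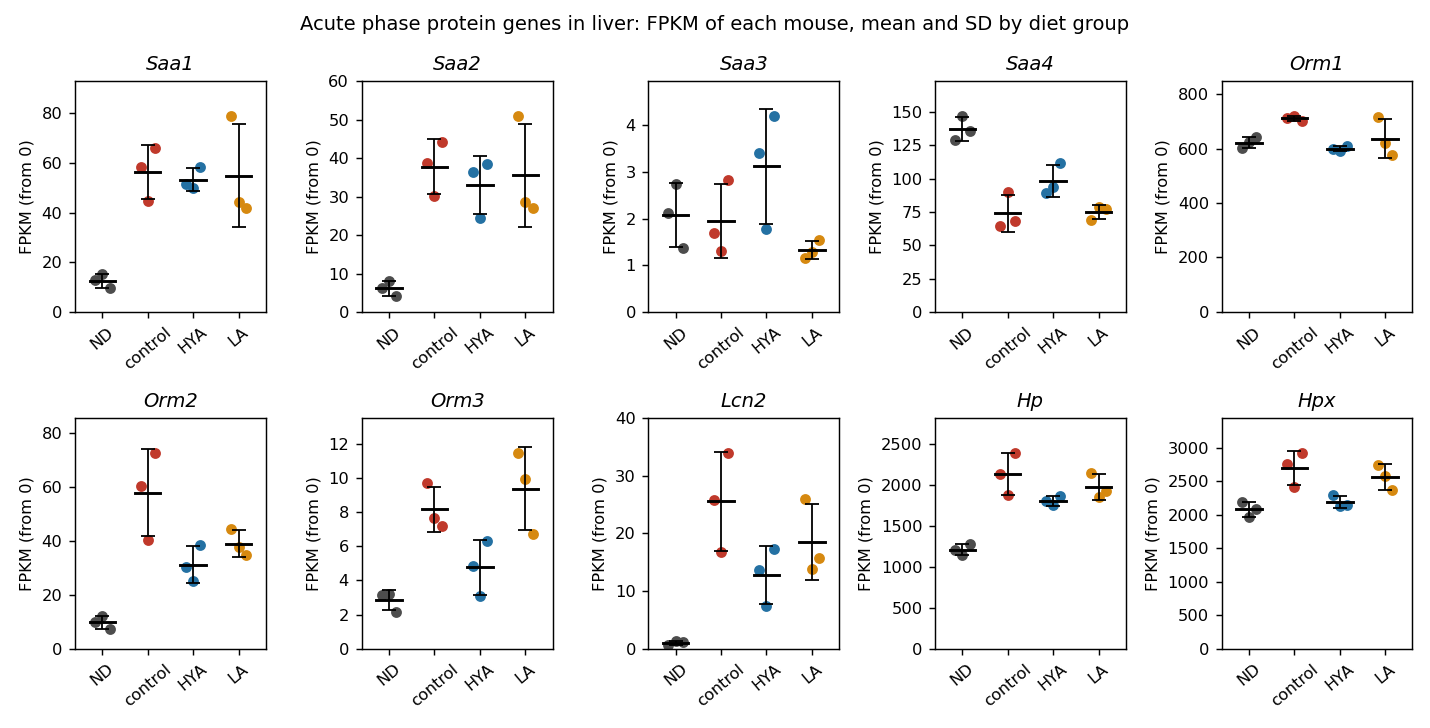
FPKM (from 0) of the 10 acute phase protein genes in each liver, by diet group, with points for single mice, a line for the mean and bars for the SD (n = 3). *Lcn2* lies between 0.651 and 1.25 in ND-fed mice and between 16.8 and 34.0 in control mice, whereas *Saa4* is highest in ND-fed mice and *Saa3* overlaps between ND-fed and control mice.

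Among the orosomucoid genes, the abundant *Orm1* differed little and the minor *Orm2* and *Orm3* differed several-fold. The FPKM of *Orm1* was 601, 624 and 641 in the ND-fed mice, 713, 719 and 700.0 in the control mice, 598, 590.3 and 609.8 in the HYA-treated mice and 715, 621 and 575 in the LA-treated mice. Control mice formed a narrow band above all ND-fed and all HYA-treated mice, and the LA-treated mice spread across the others. The log2 fold change in control against ND-fed mice was 0.19 (95% interval 0.033 to 0.35, adjusted p = 0.0600), which did not pass the threshold as deposited. It passed with TPM, at 0.43, and with median-ratio size factors, at 0.24. The FPKM of *Orm2* was 9.69, 12.3 and 7.32 in the ND-fed mice, 60.4, 40.4 and 72.5 in the control mice, 30.2, 24.9 and 38.3 in the HYA-treated mice and 44.4, 37.6 and 34.8 in the LA-treated mice. ND-fed mice were below all others, and all HYA-treated mice were below all control mice. In control against ND-fed mice the mean of *Orm2* was 5.92 times as high and the log2 fold change 2.44 (SE 0.23, adjusted p = 2.95e-05). The FPKM of *Orm3* was 3.17, 3.18 and 2.16 in the ND-fed mice, 9.69, 7.63 and 7.18 in the control mice, 4.87, 3.07 and 6.33 in the HYA-treated mice and 11.5, 9.95 and 6.73 in the LA-treated mice. Control and LA-treated mice overlapped and lay above ND-fed mice, and HYA-treated mice were below both and reached into the ND range. Control mice had 2.88 times the ND mean, with a log2 fold change of 1.26 (SE 0.23, adjusted p = 0.00171).

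Because the 3 *Orm* genes have nearly the same length (775, 775 and 773 bases), their shares of the summed *Orm* FPKM can be set side by side. *Orm2* made up 1.54 ± 0.399% of the sum in ND-fed mice, 7.43 ± 2.03% in control mice, 4.88 ± 0.914% in HYA-treated mice and 5.67 ± 0.0736% in LA-treated mice (SD, n = 3 each). The single mice ranged from 1.13% to 1.92% in the ND group, from 5.27% to 9.30% in the control group, from 4.03% to 5.85% in the HYA group and from 5.62% to 5.76% in the LA group. ND-fed mice were thus apart from all others, and the control range overlapped both the HYA and the LA range. *Orm3* made up 0.448 ± 0.101%, 1.05 ± 0.165%, 0.745 ± 0.237% and 1.36 ± 0.229% in the same order, and *Orm1* the rest, between 89.8% and 98.5% in every mouse. These shares were not tested.

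**Figure D2:**
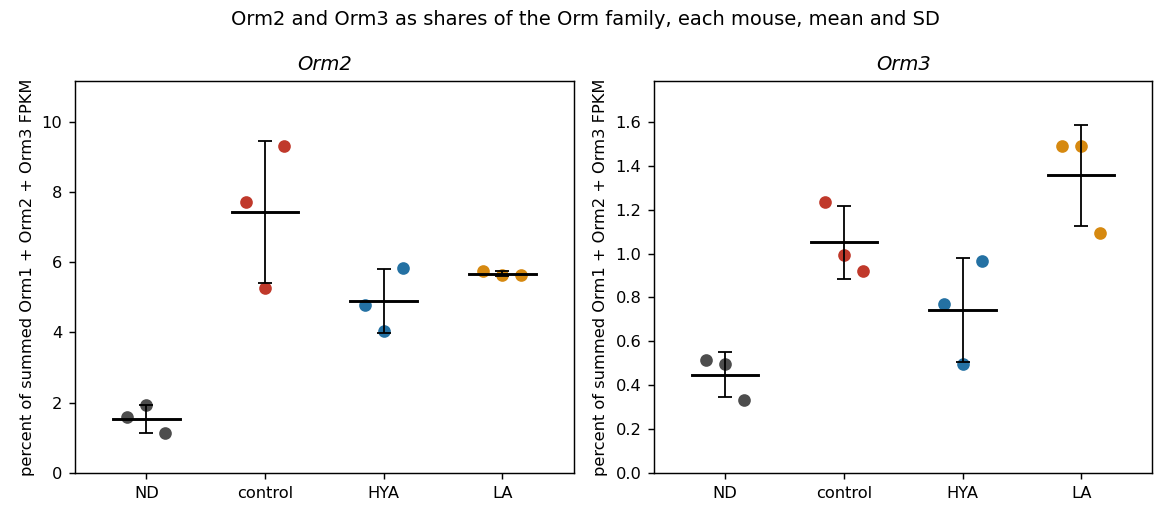
Share of the summed *Orm1*, *Orm2* and *Orm3* FPKM (percent) contributed by *Orm2* and by *Orm3* in each mouse, by diet group, with lines for means and bars for the SD (n = 3). The *Orm2* share is below 2% in all ND-fed mice and above 4% in all mice on a high-fat diet.

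*Lcn2* had the largest difference of the 10 genes between control and ND-fed mice. The FPKM of *Lcn2* was 0.651, 1.25 and 1.17 in the ND-fed mice, 25.9, 16.8 and 34.0 in the control mice, 13.6, 7.38 and 17.2 in the HYA-treated mice and 26.0, 13.7 and 15.8 in the LA-treated mice. The lowest mouse on a high-fat diet, HYA replicate 2, was above the highest ND-fed mouse, and HYA and control mice overlapped only where the highest HYA-treated mouse exceeded the lowest control mouse. The mean was 1.02 ± 0.324 in ND-fed and 25.6 ± 8.58 in control mice, 25.0 times as high. Its log2 fold change was 3.67 (SE 0.33, adjusted p = 1.95e-05) on the log2(FPKM + 1) scale, which understates the change of a gene near 1 FPKM. With a pseudocount of 0.1 it was 4.50.

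Neutrophils also make lipocalin 2, so the 11 neutrophil marker genes were examined beside it. Only 2 of the 11 were abundant enough to be tested. In control against ND-fed mice limma called 0 of them, beside 16.2% higher and 19.1% lower of all tested genes. Of the 2, 0 had an unadjusted p under 0.05 and voom called 0. Of these 2, *Csf3r* (0.31, named after its values were seen) was called higher without ND replicate 1 (0.47) or control replicate 2 (0.43), and with TPM (0.62). The summed FPKM of all 11 was 3.47, 3.39 and 2.54 in the ND-fed mice, 7.53, 4.79 and 9.01 in the control mice, 8.0, 2.83 and 4.07 in the HYA-treated mice and 4.57, 5.26 and 5.72 in the LA-treated mice. All control sums were above all ND sums. The most abundant was *S100a9*, at 0.959 to 1.81 FPKM in ND-fed and 1.43 to 4.62 in control mice. Of the 9 genes below the filter, here named after their values were seen, 4 had all control values above all ND values and 5 did not. Of all tested genes, 45.6% had ranges apart in either direction, so this count is near the background. The 4 with higher control values were *S100a8* (0.398 ± 0.152 and 1.34 ± 0.397), *Retnlg* (0.0953 ± 0.0960 and 0.767 ± 0.187), *Cxcr2* (0.0246 ± 0.0213 and 0.140 ± 0.0182) and *Ltf*. *Ltf* had 1 or 2 fragments in each control mouse and 0 in ND-fed mice, and *Retnlg* was called higher when tested without the filter on low values (0.69). The ranges of *Elane* (0.0972 ± 0.0628 and 0.111 ± 0.0538), *Ngp*, *Camp* and *Mpo* overlapped, with the *Mpo* mean lower in control mice (0.0217 and 0.00453). *Ly6g* was at 0 in every ND-fed, control and HYA-treated mouse and had 3 fragments in 1 LA-treated mouse. Control replicate 3 was highest and control replicate 2 lowest for both the neutrophil sum and *Lcn2*, whereas the HYA-treated mouse with the highest neutrophil sum, replicate 1, was not the one with the highest *Lcn2*. ND replicate 1 had the highest neutrophil sum and the lowest *Lcn2* of its group. LA replicate 1 had the lowest sum and the highest *Lcn2* of its group. The part of neutrophils in the *Lcn2* difference was not tested.

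The RNAs of *Hp* and *Hpx*, which encode the hemoglobin-binding haptoglobin and the heme-binding hemopexin, were abundant in every mouse. The FPKM of *Hp* was 1203, 1140.1 and 1277 in the ND-fed mice, 2133, 1881 and 2389 in the control mice, 1799, 1749 and 1864 in the HYA-treated mice and 2145, 1850.2 and 1924 in the LA-treated mice. ND-fed mice were below all mice on a high-fat diet, and all HYA-treated mice were below all control mice. In control against ND-fed mice *Hp* was 1.77 times as high, with a log2 fold change of 0.82 (SE 0.091, adjusted p = 8.51e-05). The FPKM of *Hpx* was 2191, 1959 and 2080.1 in the ND-fed mice, 2754, 2411 and 2919 in the control mice, 2296, 2129 and 2149 in the HYA-treated mice and 2744, 2568 and 2360.2 in the LA-treated mice. Control and LA-treated mice overlapped, and HYA-treated mice fell in or just above the ND range, below both. *Hpx* was 1.30 times as high in control as in ND-fed mice, with a log2 fold change of 0.37 (SE 0.085, adjusted p = 0.00664). This call was lost without the filter on low values (adjusted p = 0.0626 by limma), where the log2 fold change was still 0.37. Without the filter, the estimate of the spread and the adjustment rest on 26045 genes. Their parts in the lost call were not tested.

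The 8 hepatocyte marker genes, led by *Alb*, had a summed FPKM of 39781, 39059 and 38868 in mice on ND, 24753, 28928 and 27492 in controls, 31773, 33736 and 33605 with HYA and 27702, 28109.5 and 27798 with LA, and 7 of the 8 were lower in controls than on ND by limma, beside 19.1% of all tested genes. It was 6 or 7 of the 8 with 1 mouse left out, 5 with TPM and 4 without the filter on low values. In bulk liver, fewer cells of a type and less RNA per cell cannot be told apart. The 9 macrophage markers, led by *Lyz2*, summed to 316, 204 and 269 FPKM in mice on ND, 296, 299 and 307 in controls, 300.4, 256 and 215 with HYA and 309, 293 and 308 with LA, and 3 of the 9 were higher and 2 lower in control mice, beside 16.2% and 19.1% of all tested genes. These became 1 and 2 without ND replicate 2 or 3 or with only the 2 groups in the fit, 1 and 1 without control replicate 1, 2 and 1 without control replicate 3, and 3 and 1 without ND replicate 1. The *Lyz2* call was lost without ND replicate 2 (0.29), ND replicate 3 (0.46), control replicate 1 (0.43) or control replicate 3 (0.31). The adipocyte list of 6 genes, led by *Cfd*, summed to a mean of 9.10 FPKM on ND, 3.52 in controls, 4.99 with HYA and 4.55 with LA. Group means of the other summed lists in the order ND, control, HYA and LA were 328, 466, 421 and 444 FPKM for erythroid genes (5 genes, *Hbb-bs* the most abundant) and 2.82, 2.10, 1.77 and 2.60 for lymphocyte genes (7, *Nkg7*). They were 12.8, 28.1, 22.0 and 26.9 for stellate cell genes (5, *Lrat*), 46.1, 56.6, 56.3 and 55.4 for endothelial genes (5, *Clec4g*), and 3.63, 5.27, 2.89 and 4.93 for cholangiocyte genes (4, *Sox9*). The most abundant gene of a list did not always carry its difference. *Sox9* had 1.88 ± 0.415 and 1.80 ± 0.599 FPKM in ND-fed and control mice, whereas *Epcam*, named like *Col1a1* and *Alas2* after its values were seen, had 0.898 ± 0.127 and 2.38 ± 0.685. Of the stellate genes *Col1a1* had 0.978 ± 0.317 and 10.7 ± 2.79, and *Lrat* 4.71 ± 0.776 and 6.99 ± 1.23.

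By limma the genes higher and lower in control than in ND-fed mice were 2 and 0 of 5 stellate, 2 and 0 of 5 endothelial, 1 and 0 of 2 cholangiocyte, 0 and 1 of 2 adipocyte and 0 and 1 of 5 erythroid genes tested, beside 16.2% and 19.1% of all tested genes. No lymphocyte gene was tested. The stellate count became 3 without ND replicate 3 or control replicate 2, with *Lrat* at 0.59 and 0.61, and 4 with TPM or a replicate block. The erythroid gene called lower was *Alas2*, from 66.2 ± 1.03 to 30.5 ± 4.97 FPKM, a call kept in every setting, while the summed FPKM of the list was higher in control mice. Without control replicate 3, and with TPM, 3 erythroid genes were called higher, among them *Hbb-bs* (0.99 and 1.00). The endothelial, cholangiocyte and adipocyte counts did not change with 1 mouse left out. With TPM, however, 4 of the 5 endothelial genes were called higher, *Clec4g* and *Stab2* joining *Pecam1* and *Lyve1*. Without the filter on low values 2 of 6 adipocyte genes were called lower. In HYA-treated against control mice 1 hepatocyte gene was called higher, and *Col1a1* and *Epcam* lower, of 38 tested genes of the 9 lists, beside 1.57% higher and 1.23% lower of all tested genes. These 3 calls were lost without any 1 mouse of the groups other than control replicate 2, at -1.22 to -0.94 for *Col1a1* and -0.90 to -0.72 for *Epcam*, and with only the 2 groups in the fit. The *Epcam* call was also lost without the filter on low values. Without control replicate 2 the hepatocyte genes called higher became 3, and *Alas2* was called higher (0.49). No gene of any list was at 0 in all 12 mice. The part of these cell types in the differences of the acute phase genes was not tested.

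HYA-treated mice were then compared with control mice, to see whether HYA given with the high-fat diet went with a different level of these genes. By limma, 0 of the 10 genes were called higher and 0 lower, where 1.57% and 1.23% of tested genes were called, so that a count of 0 is near the background. Adjusted p-values ran from 0.0738 (*Orm2*) to 0.927 (*Saa1*). The unadjusted p was under 0.05 for 7 genes, 6 lower and 1 higher, beside 18.5% of tested genes. The ranges of the 3 and 3 mice were apart for 5 genes, all lower (*Orm1*, *Orm2*, *Orm3*, *Hp* and *Hpx*), beside 21.6% of tested genes apart in either direction. Among the genes with an unadjusted p under 0.05, the mean of *Orm2* was 31.1 ± 6.72 FPKM in HYA-treated and 57.8 ± 16.2 in control mice, and the log2 fold change was -0.85 (95% interval -1.36 to -0.35). For *Lcn2* the means were 12.8 ± 4.99 and 25.6 ± 8.58, with -0.97 (-1.69 to -0.25, adjusted p = 0.139). *Orm3* had -0.70 (-1.21 to -0.20), *Hpx* -0.29 (-0.48 to -0.11), *Orm1* -0.25 (-0.41 to -0.086) and *Hp* -0.24 (-0.44 to -0.036), all on the log2 scale. *Saa4* was the gene on the higher side, at 0.41 (0.13 to 0.68). For *Saa1* and *Saa2* the differences were -0.064 (-0.58 to 0.45) and -0.20 (-0.81 to 0.41), and for *Saa3*, also on the higher side, 0.47 (-0.080 to 1.02, adjusted p = 0.347).

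The count of 0 in HYA-treated against control mice depended on settings. Rescaling to TPM, which moved the median of all genes by -0.11 and the called genes from 174 higher and 136 lower to 97 and 400, gave 3 calls, *Orm1*, *Orm2* and *Hpx*, all lower. Limma-voom on recovered fragments gave 1, *Orm2*, lower, with 236 genes higher and 184 lower over all tested genes. Leaving out control replicate 2, the control mouse with the lowest *Orm2* and *Hpx*, gave 3, with *Orm2* at -1.09 and *Hpx* at -0.37 on the log2 scale and *Saa4* higher at 0.55, and over all tested genes 377 were then called higher and 276 lower. Over all tested genes the calls also fell to 0 higher and 0 lower without HYA replicate 2, where 1473 genes had an unadjusted p under 0.05. They were also 0 and 0 with only the 2 groups in the fit, where 1723 genes had an unadjusted p under 0.05, and 41 and 64 without the filter on low values. They were 17 and 12 without control replicate 1, 46 and 34 without control replicate 3, 39 and 45 without HYA replicate 1, and 27 and 32 without HYA replicate 3. With a replicate block they were 253 and 196.

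**Figure D3:**
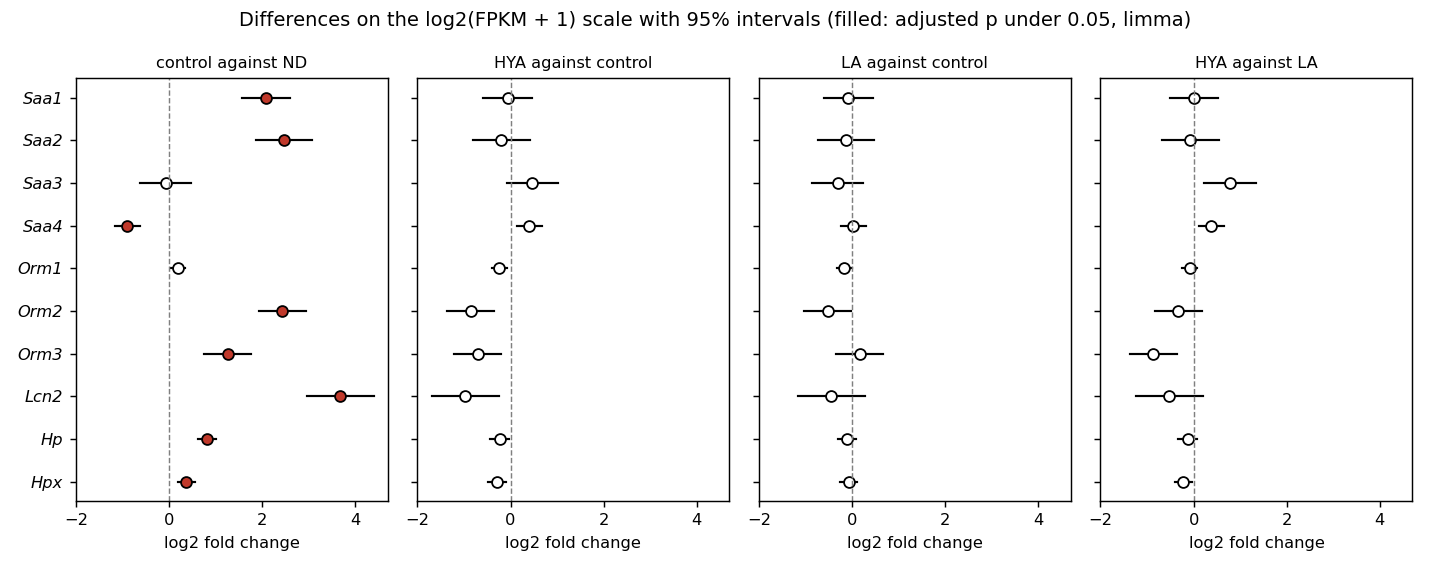
Log2 fold changes of the 10 genes on the log2(FPKM + 1) scale with 95% intervals in 4 comparisons, with filled points for an adjusted p under 0.05 by limma. Of the 10 points, 8 are filled in control against ND and 0 in each of HYA against control, LA against control and HYA against LA.

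LA-treated mice were compared with control mice in the same way. By limma 0 of the 10 genes and 0% of tested genes were called higher, and 0 and 0% lower, with an adjusted p of 0.999 for each of the 10. The unadjusted p was under 0.05 for 2, *Orm1* and *Orm2*, both lower, beside 2.65% of tested genes, and voom called 0. That share was of 294 genes, which became 672 without control replicate 3. The ranges of LA-treated and control mice overlapped for all 10 genes, where 7.55% of tested genes had ranges apart. The intervals were not narrow for the more variable genes, with -0.44 (-1.16 to 0.28) for *Lcn2*, -0.078 (-0.60 to 0.44) for *Saa1* and -0.53 (-1.03 to -0.019) for *Orm2*. LA replicate 1 held the highest LA value of 8 of the 10 genes.

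The direct comparison of the structurally related compounds, HYA against LA at the same dietary dose and time, was a single pair of groups with p-values adjusted over all 11083 tested genes. Limma called 0 of the 10 genes higher and 0 lower, beside 0.235% and 0.253% of tested genes, and voom also called 0, with 90 and 76 over all tested genes. The unadjusted p was under 0.05 for 4 genes, beside 17.2% of tested genes. The same 4 had ranges apart, beside 25.2% of tested genes. *Orm3* was 4.76 ± 1.63 FPKM with HYA and 9.38 ± 2.42 with LA, a log2 fold change of -0.86 (95% interval -1.37 to -0.36, adjusted p = 0.0941), lower in 3 of 3 HYA-treated mice than in any LA-treated mouse. *Hpx* was at -0.22 (-0.41 to -0.033, adjusted p = 0.214). On the higher side were *Saa3* at 0.78 (0.23 to 1.33, adjusted p = 0.142) and *Saa4* at 0.38 (0.11 to 0.65, adjusted p = 0.150). For the other 6 genes the ranges overlapped and the intervals were -0.50 to 0.53 for *Saa1*, -0.68 to 0.54 for *Saa2*, -0.24 to 0.078 for *Orm1*, -0.83 to 0.18 for *Orm2*, -1.24 to 0.19 for *Lcn2* and -0.33 to 0.074 for *Hp*. Over all tested genes the 26 higher and 28 lower depended on settings. By limma they became 0 and 0 without HYA replicate 2, LA replicate 1 or LA replicate 2, where 1302, 1250 and 1700 genes had an unadjusted p under 0.05, and 0 and 0 without the filter on low values, where 2911 of 26045 had. They were 9 and 11 without HYA replicate 1, 5 and 4 without HYA replicate 3 or LA replicate 3, 146 and 112 with a replicate block, and 61 and 33 with only the 2 groups in the fit. A p-value that misses the threshold does not show that the compounds act alike.

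Each supplemented group was also compared with the ND-fed mice, which these comparisons share with the control comparison. In HYA-treated mice 5 genes were higher than in ND-fed mice (*Saa1*, *Saa2*, *Orm2*, *Lcn2* and *Hp*) and 1 lower (*Saa4*), beside 8.72% and 7.85% of tested genes. In LA-treated mice 7 were higher and *Saa4* lower, beside 14.4% and 16.6% of tested genes. The log2 fold changes against ND-fed mice in the order control, HYA and LA were 3.67, 2.71 and 3.23 for *Lcn2*, 2.44, 1.58 and 1.91 for *Orm2*, and 2.09, 2.02 and 2.01 for *Saa1*. They were -0.89, -0.49 and -0.87 for *Saa4*, 0.82, 0.58 and 0.71 for *Hp*, 0.37, 0.078 and 0.30 for *Hpx*, and 1.26, 0.56 and 1.42 for *Orm3*. *Orm3* and *Hpx* were called in control and LA-treated mice but not in HYA-treated mice, and the difference between HYA and control mice in these genes did not pass the threshold. The HYA call of *Saa4* was lost without ND replicate 2 (-0.44), ND replicate 3 (-0.49), HYA replicate 1 (-0.42) or HYA replicate 2 (-0.46), and *Orm3* was called without HYA replicate 2 (0.79). The LA call of *Hpx* was lost without ND replicate 2 (0.26), ND replicate 3 (0.30), LA replicate 1 (0.25) or LA replicate 2 (0.29). Both calls were also lost without the filter on low values, and *Orm1* was called in LA against ND with TPM (0.26). Over all tested genes, the 870 lower in HYA against ND fell to 526 without ND replicate 2, 555 without HYA replicate 1 and 555 without HYA replicate 2. With TPM the genes called higher and lower went from 966 and 870 to 1623 and 412 in HYA against ND, from 1600 and 1845 to 3615 and 618 in LA against ND, and from 26 and 28 to 31 and 134 in HYA against LA.

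Within groups, the same mice tended to be high for several of these genes. Control replicate 3 was highest and control replicate 2 lowest of their group for the same 7 genes, *Saa1*, *Saa2*, *Saa3*, *Orm2*, *Lcn2*, *Hp* and *Hpx*. HYA replicate 3 was highest for 9 genes and HYA replicate 2 lowest for 9. LA replicate 1 was highest for 8, and ND replicate 2 for 7. Over the 12 mice, after the group mean of log2(FPKM + 1) was subtracted, Pearson's r, given as a description, was 0.93 for *Saa1* with *Saa2* and 0.86 for *Saa2* with *Orm2*. It was 0.77 for *Lcn2* with *Hp* and 0.77 for *Hp* with *Hpx*, and -0.79 for *Saa4* with *Hpx*. Leaving out 1 mouse at a time, r ran from 0.89 to 0.99 for *Saa1* with *Saa2*, 0.82 to 0.93 for *Saa2* with *Orm2* and 0.68 to 0.87 for *Lcn2* with *Hp*. It ran from 0.58 to 0.83 for *Hp* with *Hpx* and from -0.84 to -0.59 for *Saa4* with *Hpx*, and the value nearest 0 of both came without control replicate 2. Other pairs changed sign, such as *Saa1* with *Orm1*, at 0.59 over the 12 mice and -0.24 without LA replicate 1. These pairs were chosen after the values were seen. Over all 45 pairs r was above 0 for 37, above 0.7 for 9 and below 0 for 8, with a median of 0.50 and a median absolute r of 0.51. Between tested genes, taking 1 in 10, the median absolute r was 0.28. The points share the library of each mouse, and near copies may share fragments.

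**Figure D4:**
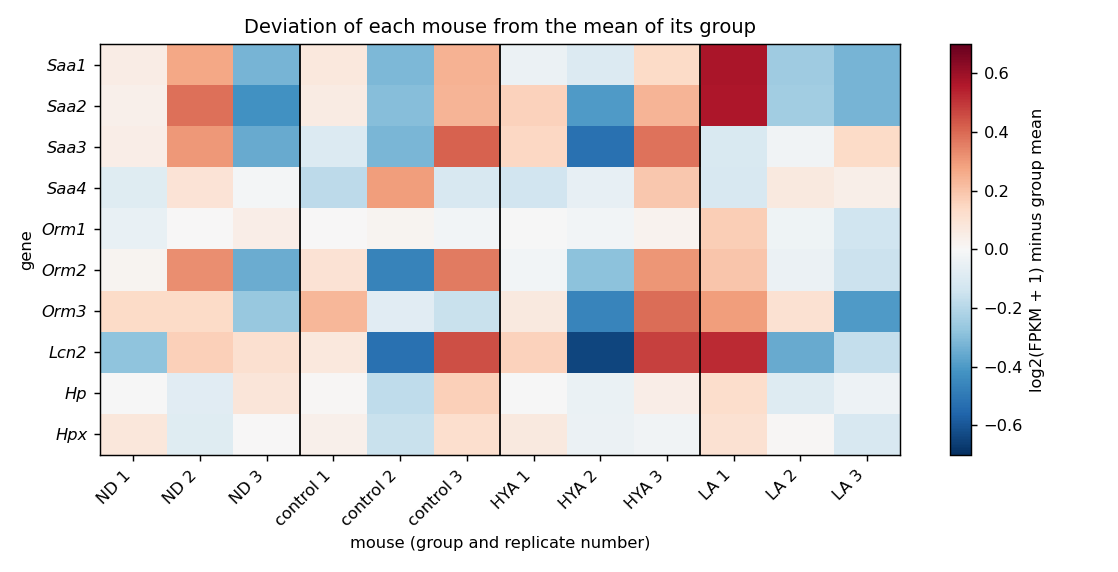
Deviation of each mouse (columns, by group and replicate number) from the mean of its group in log2(FPKM + 1), for the 10 genes (rows), with red above and blue below the mean. HYA replicate 2 is lowest of its group for 9 genes and LA replicate 1 highest for 8.

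The tested genes outside the 10 whose group-centred values were most like those of *Saa1* over the 12 mice were *Smarcb1* (r = 0.92), *Ap1b1* (0.92), *Slc27a4* (0.92), *Fat1* (0.90) and *Uxs1* (0.90). Those most like *Lcn2* were *Klhl25* (r = 0.93), *Nsmf* (0.91), *Ube2j1* (0.90), *AI506816* (0.90) and *Tmem176b* (0.88). They are the highest values over all tested genes outside the 10, and group differences were removed before r was computed. Picking the highest of so many genes over 12 mice gives a high r by itself. Whether these genes are regulated together was not tested. *Tmem176b* had a mean of 68.0 FPKM on ND, 115 in controls, 78.3 with HYA and 109 with LA, whereas *Smarcb1* lay between 2.27 and 2.77 in the 4 groups.

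Other genes of the response were counted by list. Of 22 other positive acute phase genes, all tested, 9 were higher in control mice, 8 were lower and 5 were not called, beside 16.2% higher and 19.1% lower of all tested genes, with a median log2 fold change of -0.059. The genes with the lowest p were *C3*, the central complement component, which fell from 1542 ± 77.0 to 822 ± 40.7 FPKM, the metallothioneins *Mt1* and *Mt2*, which rose from 3.82 ± 1.54 to 15.1 ± 2.03 and from 2.49 ± 0.796 to 14.8 ± 2.35, and *Il1rn*, the interleukin-1 receptor antagonist, which rose from 0.329 ± 0.114 to 2.08 ± 0.420. The fibrinogen chain genes, named after their values were seen, all fell, with *Fga* from 1371 ± 141 to 769.9 ± 136, *Fgb* from 972 ± 67.6 to 523 ± 71.7 and *Fgg* from 1326 ± 117 to 815 ± 161. Their adjusted p-values were 0.00112, 4.17e-04 and 0.00610 by limma. Calls of 5 further genes of the list, named after their values were seen, depended on settings. With TPM those of *Crp* (-0.048) and *Itih4* (-0.16), both lower, were lost. The *Crp* call was also lost without ND replicate 2 (-0.26), ND replicate 3 (-0.25) or control replicate 1 (-0.21). The call of *Apcs* was lost without ND replicate 2 (0.40), control replicate 1 (0.47) or control replicate 3 (0.38), that of *Cp* without ND replicate 1 (0.35), control replicate 1 (0.38) or control replicate 3 (0.31) and that of *Fgl1* without ND replicate 2 (0.56), control replicate 1 (0.62) or control replicate 3 (0.57), all of them higher. Those of *Apcs* and *Fgl1* were also lost without the filter on low values, and that of *Crp* with only the 2 groups in the fit. Of 8 negative acute phase genes 0 were higher and 5 lower, beside the same shares, with a median of -0.35, led by *Fetub* (-1.23 on the log2 scale), *Ahsg* (-0.88), *Alb* (-0.51) and *Ttr* (-0.42), which encode fetuins, albumin and transthyretin. The calls of *Alb* and *Ttr* were lost without the filter on low values. That of *Rbp4* was lost without the filter, with only the 2 groups in the fit, with TPM (-0.046), with median-ratio size factors (-0.24), and without ND replicate 2 (-0.25), ND replicate 3 (-0.27), control replicate 1 (-0.20) or control replicate 3 (-0.30). The hepatocyte marker list, which also holds *Alb* and *Ttr*, had a median of -0.53. The median of all tested genes was -0.043.

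Of the 9 cytokine ligand genes, 7 were below the filter on low values. *Il6* had 0 fragments in every ND-fed mouse and at most 3 in any other mouse, and *Il22* had 0 in all 12 mice. A count of 0 allows up to 3 fragments, or 0.0607 to 0.0944 FPKM for a gene of 2 kb over the 12 mice, for counting error only. *Osm* averaged 0.106 FPKM in control mice and was at 0 in ND-fed mice, *Lif* averaged 0.0302 and 0.191 FPKM in ND-fed and control mice, *Il11* 0.0303 and 0.0386, *Cntf* 0.164 and 0.118 and *Tnf* 0.370 and 0.510. Only *Il1a* and *Il1b* were tested. *Il1a* rose from 2.01 ± 0.309 to 3.40 ± 0.312 FPKM (adjusted p = 9.34e-04 by limma), and *Il1b* was 2.50 ± 0.883 and 2.24 ± 0.714, not called.

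Of 12 cytokine receptor genes 10 were tested, with 4 higher and 3 lower in control than in ND-fed mice, beside 16.2% and 19.1% of all tested genes. *Lifr*, a receptor of leukemia inhibitory factor and oncostatin M, fell from 35.7 ± 3.14 to 10.5 ± 0.564 FPKM and *Il1rap* from 13.3 ± 0.564 to 7.85 ± 1.01, whereas *Il10rb* rose from 1.52 ± 0.269 to 2.50 ± 0.300 and *Tnfrsf1a* from 34.0 ± 1.29 to 41.9 ± 3.89. The other 3 calls, named after their values were seen, were less stable. That of *Il6st*, higher, was lost without ND replicate 1 (0.22), ND replicate 2 (0.19), ND replicate 3 (0.24), control replicate 2 (0.23) or control replicate 3 (0.16), and that of *Tlr2*, higher, without ND replicate 2 (0.47), ND replicate 3 (0.58), control replicate 1 (0.50) or control replicate 3 (0.50), and both were lost without the filter on low values. The *Il6st* call was also lost with a replicate block and with only the 2 groups in the fit. That of *Il1r1*, lower, was lost with TPM (-0.29) and without control replicate 1 (-0.36). Among 16 signal transducers and transcription factors 1 was higher and 3 lower, which is no more than the shares of all tested genes, namely *Cebpd*, which rose from 1.05 ± 0.136 to 2.79 ± 0.653, and *Nr3c1*, *Hnf4a* and *Traf6*, with log2 fold changes of -0.42, -0.54 and -0.23. The *Traf6* call was lost without ND replicate 1 or 2 or control replicate 2 or 3, where the log2 fold change was -0.24, -0.19, -0.21 and -0.21. It was also lost without the filter, with median-ratio size factors (-0.20), with a replicate block and with only the 2 groups in the fit. Of 9 feedback targets 8 were tested and 1 was called, also no more than the share of all tested genes. It was *Tnfaip3*, higher, from 0.491 ± 0.155 to 1.33 ± 0.357, while *Socs3*, an immediate target of STAT3 named after its values were seen, was 3.03 ± 1.85 and 2.78 ± 0.648. All 4 tested of 7 genes for binding partners of these proteins were called, 1 higher and 3 lower, beside the same shares. *Hmox1*, the heme oxygenase, was higher, and the hemopexin receptor *Lrp1*, the haptoglobin receptor *Cd163* and the lipoprotein receptor *Scarb1* were lower. With TPM the calls of *Traf6* (-0.062) and *Scarb1* (-0.074) were lost.

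In HYA-treated against control mice, 0 of the 22 other positive acute phase genes were called by limma, against 1 higher and 4 lower with an unadjusted p under 0.05 and 1 called lower by voom, with a median log2 fold change of -0.029 beside 0.019 over all tested genes. Of 70 tested genes of the 7 lists 4 were called higher and 0 lower, beside 1.57% and 1.23% of all tested genes. Of the 8 negative genes *Fetub* was called, higher at 119 ± 10.8 against 81.4 ± 4.81 FPKM, and the median of the list was 0.29, with 6 higher and 1 lower at an unadjusted p under 0.05 and 3 called higher by voom. *Lifr* was also higher, at 21.2 ± 3.08 against 10.5 ± 0.564, as were *Il1rap* (0.41 on the log2 scale) and *Lrp1* (0.30). The ligand, factor and feedback lists had 0 calls by limma of 2, 16 and 8 tested genes, 0 by voom, and 0, 1 and 0 genes with an unadjusted p under 0.05. Without HYA replicate 2 the calls of all 4 genes were lost, with *Fetub* then at 0.47, *Lifr* at 0.92, *Il1rap* at 0.44 and *Lrp1* at 0.28. That of *Fetub* was also lost without control replicate 1 (0.49), and those of *Il1rap* and *Lrp1* without any 1 of control replicates 1 and 3 and HYA replicates 1 and 3, at 0.33 to 0.42 and 0.25 to 0.34. With only the 2 groups in the fit the calls of all 4 were lost, with TPM that of *Lrp1* (0.18), and without the filter on low values those of *Il1rap* and *Lrp1*. In HYA-treated against LA-treated mice *Lifr* (0.88) and *Fetub* (0.47) were called higher, 2 of the 70 tested, beside 0.235% higher and 0.253% lower of all tested genes. Leaving out any 1 mouse of these groups ended the *Fetub* call (0.40 to 0.52), and leaving out any but HYA replicate 3 ended the *Lifr* call (0.74 to 0.96). Both calls were also lost without the filter and with only the 2 groups in the fit. In LA-treated against control mice 0 genes of these 7 lists were called by limma, 0 by voom, and 0 had an unadjusted p under 0.05.

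**Figure D5:**
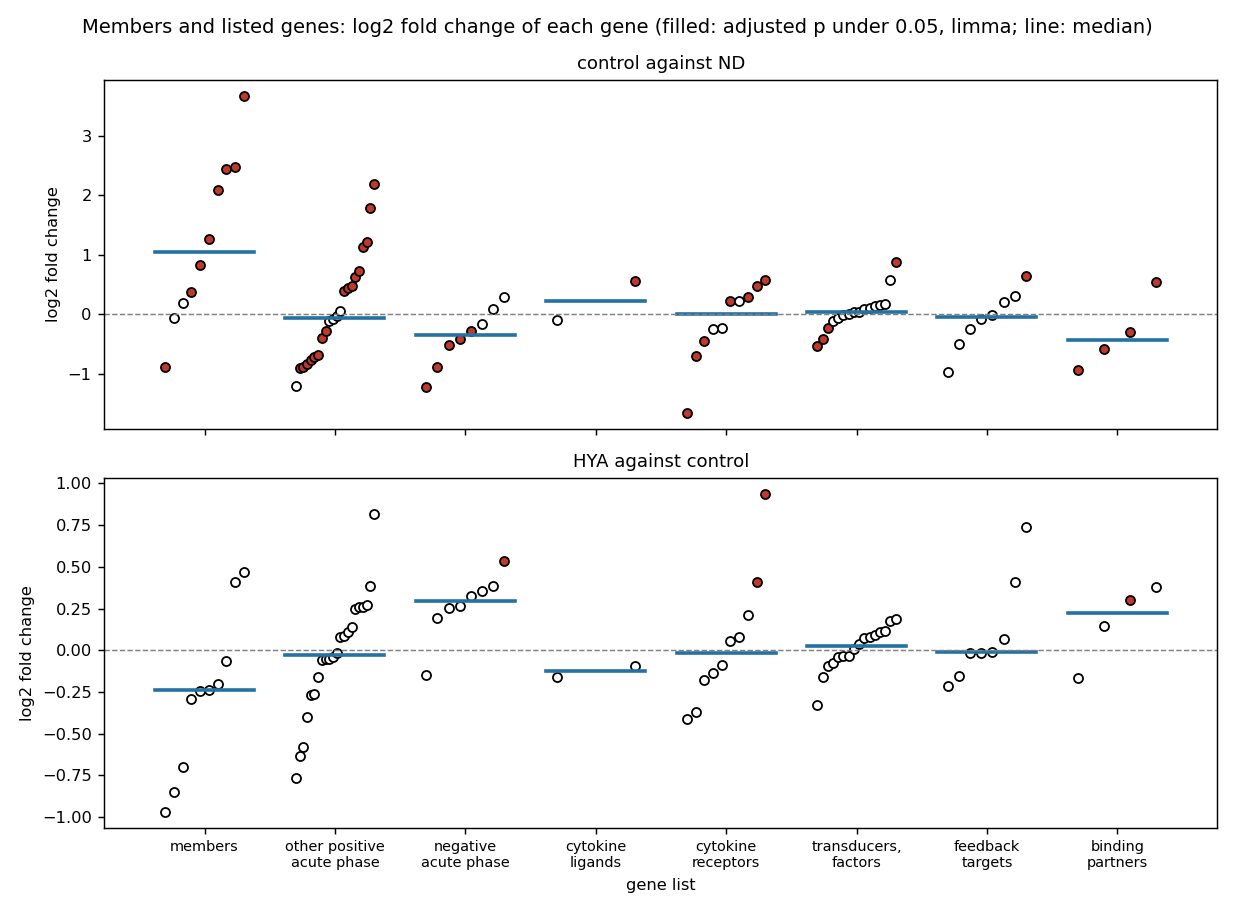
Log2 fold change of each tested gene of the 10 acute phase genes and of 7 lists, in control against ND (top) and HYA against control (bottom, on its own scale), with filled points for an adjusted p under 0.05 by limma and lines for list medians. In control against ND the 22 other positive acute phase genes spread to both sides of 0, with 9 called higher and 8 lower.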

How the data were processed

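Liver RNA was sequenced from 12 mice, and the authors deposited its FPKM values in 1 table. Their processing notes name fastp, HISAT2 2.0.5, featureCounts 1.5.0-p3 and GRCm38. The paper's methods name TPM, but column sums of 342146 to 429286 differ between mice. Values times gene length came out as whole multiples of 1 step in at least 99.95% of genes (tolerance 0.02 fragments), and 1 step was taken as 1 fragment. From the deposited FPKM, log2(FPKM + 1) was computed and fitted with limma 3.58.1 in R 4.3.3 (trend, two-sided, all 12 mice, no block), with Benjamini-Hochberg adjustment over 11083 genes and a threshold of 0.05. In 1 simulation with known changes, the share of false calls was above that threshold. Alternatives were a pseudocount of 0.1, no filter, TPM, median-ratio factors, voom on fragments, a replicate block, only the 2 groups compared, an absolute log2 fold change over 1, and leaving out each mouse. The same alternatives for listed genes were added after seeing the data. Named genes were the 10, up to 4 called genes of lowest p per pathway list and comparison, all ligands, 5 genes most like *Saa1* and *Lcn2*, and the most abundant gene of each cell list. The 10 genes and the lists were chosen with earlier results of these data known. Sequences came from RefSeq and GENCODE, aligned with Biopython 1.88.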

Additional observations from a re-analysis of the deposited data

How the results depend on the processing

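Of the 10 genes, 5 were called in control against ND, and 5 in LA against ND, when an absolute log2 fold change over 1 was also required, and 4 in place of 6 in HYA against ND. HYA-treated and control mice differed in 3 genes with TPM, in 1 with voom, and in 0 to 3 with each mouse left out in turn. With a replicate block the number called was 8 for control, 6 for HYA and 8 for LA against ND, and 0 for the other comparisons, the numbers found without it. Neither the labels nor the paper say whether a number joins mice of different groups. Deviations of mice with the same number had a mean correlation of 0.00997 (-0.396 to 0.294). For different numbers it was -0.00505 (-0.375 to 0.393). A mean near 0 over all tested genes cannot exclude a batch shared by mice of 1 number, and this was not tested. For the 10 genes, signs turned only for differences that were not called. With TPM the log2 fold change was 0.11 for *Saa3* in control against ND, -0.10 for *Saa1* in HYA against LA and 0.058 for *Orm1* in HYA against ND. With median-ratio factors it was -0.0050 for *Saa1* in HYA against LA. With each mouse left out in turn it ran from -0.27 to 0.090 for *Saa3* in control against ND and from -0.22 to 0.057 for *Saa1* in HYA against control. In LA against control it ran from -0.36 to 0.084 for *Saa1*, -0.41 to 0.032 for *Saa2* and -0.064 to 0.17 for *Saa4*. In HYA against LA it ran from -0.15 to 0.30 for *Saa1*, -0.23 to 0.21 for *Saa2* and -0.152 to 0.00414 for *Orm1*, and in LA against ND from -0.057 to 0.099 for *Orm1*. Relative to the median of all genes the 3 differences that turned with TPM kept their sign with TPM and median-ratio factors. They were, as deposited and with TPM, -0.025 and -0.061 for *Saa3*, -0.00034 and -0.0092 for *Saa1* and -0.033 and -0.021 for *Orm1*. The causes were not tested. With 3 mice per group, differences smaller than the intervals given are not resolved, and *Orm3* and *Lcn2* rest on 30 to 55 fragments in ND-fed mice.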

Other observations

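The ratio of *Saa1* to *Saa2* FPKM was nearly the same in all mice of some groups. It was 1.49 ± 0.0162 in control mice (SD, n = 3 in each group) and 1.55, 1.54 and 1.55 in single LA-treated mice, although *Saa1* was at 78.8 FPKM in LA replicate 1 and at 44.1 and 41.9 in the others. It was 2.09, 1.87 and 2.32 in ND-fed mice, and 1.42, 2.04 and 1.52 in HYA-treated mice, where replicate 2 stood apart. ND-fed mice were above all control and all LA-treated mice. *Saa2* rested on 270, 322 and 188 fragments in ND-fed mice and on 2734, 1538 and 1516 in LA-treated mice. The counting error of the ratio was not computed, and the split of fragments between these near copies is uncertain. The ratio was not tested.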
